A study of Homo sapiens with 6 samples.

Results

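Cells keep iron available yet contained by taking it up, storing it and releasing it again, and the 10 genes described here code for the main steps of that cycle. Transferrin-bound iron enters through the transferrin receptor TFRC, is reduced in the endosome by STEAP3 and passes into the cytosol through SLC11A2, also known as DMT1. Surplus iron is held in ferritin, a shell of FTH1 and FTL chains that NCOA4 delivers to lysosomes for breakdown, while HMOX1 frees iron by opening the haem ring. The RNA-binding proteins ACO1 (IRP1) and IREB2 (IRP2), the latter degraded through the iron sensor FBXL5, bind hairpins called iron-responsive elements, or IREs. Binding in a 3' untranslated region protects TFRC mRNA, and binding in a 5' untranslated region blocks translation of ferritin mRNA. Loosely bound iron feeds the lipid peroxidation of ferroptosis, the form of cell death that erastin triggers.

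The 10 genes were listed by name and no measured value enters that rule, although they were chosen with earlier results of these data known. All 10 were found among the 20325 protein-coding genes of the deposited table. The data are bulk RNA sequencing of SNU-668, an established gastric cancer cell line, in a form the labels call resistant to erastin, a state shared by both groups, as was growth in DMEM with fetal bovine serum. Whether erastin was present at harvest is not stated, and the code RLS3 at the start of every sample title, which may name a further state common to both groups, is unexplained. Of the 6 libraries, 3 came from cells given a control shRNA (labelled WT for genotype) and 3 from cells given an shRNA against ALKBH3 (genotype label ALKBH3 knockdown). ALKBH3 is a demethylase of alkylated DNA and RNA. Whether the cells were a pool or a clone, how many shRNA sequences were used and whether the replicates were separate cultures is not stated in the sources used here. The p-values therefore measure no more than the spread of these libraries, part of which may be technical.

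Totals lay between 14244932 and 17880183 counts, with 14465 to 14754 genes read per library. ALKBH3 had 326, 351 and 334 counts in the controls and 95, 106 and 68 in the knockdown libraries, a log2 fold change of -2.11. Principal component 1 (41% of variance) divided the groups. On component 2, control replicate 2 scored 17.9 where the other controls had -9.81 and -9.03, and knockdown replicate 1 scored -9.3 where its group had 5.1 and 5.15. These libraries stood apart on that component, which held 18.4% of variance, and the calls that change without them are given below. Of 5 epithelial markers, the cadherin CDH1 had 0 reads, EPCAM had 54 in total and KRT19 was at 1.12 CPM (counts scaled to a common library size of 1e6) in controls, so that KRT18 and, at a low level, KRT8 carried most of the list. KRT18 rose from a mean of 149 to 193 CPM and KRT8 from 13.3 to 17.6 CPM (adjusted p = 0.0024 and 0.0419, edgeR's test), and the 5 markers summed to between 151 and 173 CPM in controls and between 208 and 220 CPM in the knockdown. The mesenchymal markers VIM, FN1 and CDH2, at 3840.5, 3733 and 311 CPM in controls, were not called, and summed to 7548 to 8122 CPM in controls and 7288 to 7804 CPM in the knockdown. Of 8 markers of other cell types, COL1A1 (105 and 80.1 CPM in controls and knockdown) and PDGFRB (120 and 143 CPM), both stromal genes, were well read and not called (adjusted p = 0.0512 and 0.0659, edgeR's test). Haemoglobin beta had 0 reads, the leukocyte gene PTPRC lay between 0 and 3.66 CPM, and the 8 summed to 211 to 255 CPM in controls and 210 to 233 CPM in the knockdown. The part of these marker differences in the results on iron genes was not tested.

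The IRE hairpins are shown first because they are the feature through which the iron regulatory proteins are known to bind TFRC and ferritin mRNA. A pattern was searched in the longest coding transcript of each of 19684 genes (GENCODE 29, GRCh38, sense strand): an unpaired C, a stem arm of 5 bases, the loop CAGTGN with N other than G, and a second arm pairing with the first in all 5 positions, with G-T pairs allowed. Such a match was present in 0.95% of genes, and 3 of those genes held more than 1. TFRC held 4 matches, all in its 3' untranslated region on the minus strand of chromosome 3 within 546 bases, and was the 1 gene with that many. The pattern misses hairpins of another form, so its matches need not be all the IREs of a transcript. FTH1 (chromosome 11, minus strand) and FTL (chromosome 19, plus strand) held 1 each in the 5' untranslated region. Capitals mark the loop, and the positions are chr3:196050978-196051007, chr3:196050574-196050603, chr3:196050509-196050538 and chr3:196050462-196050491 for TFRC, chr11:61967573-61967602 for FTH1 and chr19:48965335-48965364 for FTL.
TFRC site 1: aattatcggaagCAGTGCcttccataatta
TFRC site 2: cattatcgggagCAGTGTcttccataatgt
TFRC site 3: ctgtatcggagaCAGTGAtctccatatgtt
TFRC site 4: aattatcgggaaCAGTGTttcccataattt
FTH1: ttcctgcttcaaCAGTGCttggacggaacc
FTL: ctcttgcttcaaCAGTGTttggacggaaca

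The FTH1 and FTL stretches were equal in 26 of 30 bases, so the ferritin chains carry almost the same hairpin. A looser form of the pattern, with at least 4 of 5 pairs, occurred in 7.12% of genes and so marks a transcript less sharply. It was found in the 3' untranslated region of SLC11A2 at chr12:50988268-50988297 on the minus strand, where the transcript is known to carry an IRE, and also in those of IREB2 and ACO1.
SLC11A2: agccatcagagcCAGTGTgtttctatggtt

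Among the 10 genes TFRC fell in the knockdown, and the other 9 did not pass the test. TFRC mRNA was at 0.82 times its control level. The ferritin chains lay on opposite sides of their controls, FTH1 at 1.13 times and FTL at 0.875 times the control level, neither past the threshold, so that the number of FTH1 reads per FTL read was 1.29 times that of the controls. The regulators IREB2, ACO1 and FBXL5, the transporter SLC11A2 and the haem oxygenase HMOX1 had groups that overlapped.

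Groups were compared with edgeR's quasi-likelihood test over all 12305 genes with enough reads, and adjusted p-values under 0.05 counted as calls. Of the 10 genes, all tested, 0 rose and 1 fell, as also in DESeq2 and limma-voom. The 1 call became 0 when any of control replicates 1 and 2 and knockdown replicates 2 and 3, or the pair that stood apart, was left out. Over all tested genes 3.96% were called higher and 4.12% lower, 8.08% together, so 1 call among 10 is near the background. Without adjustment 3 of the 10 had a p under 0.05 (TFRC, FTL and STEAP3), where 22.2% of all tested genes did, and all 3 were lower. The groups did not overlap in 5 of the 10, namely TFRC, FTL and STEAP3 with the knockdown below and FTH1 and NCOA4 with it above, against 26.6% of all tested genes. The median log2 fold change was -0.02 over the 10 genes and 0.01 over all tested genes. In bulk RNA, a change in every cell and a change in some of the cells cannot be told apart.

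**Figure D1:**
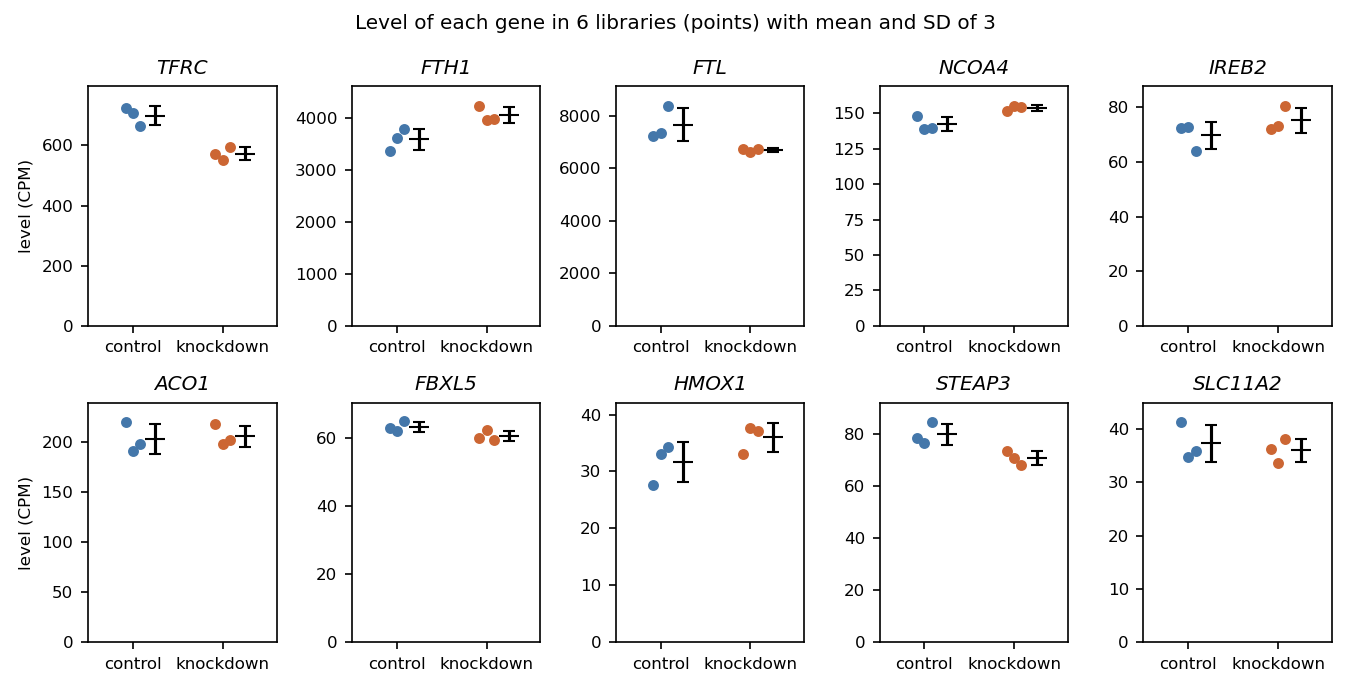
Level of each of the 10 genes in CPM (y axis from 0) in the 3 control libraries (blue) and the 3 knockdown libraries (orange). Bars give the mean and SD of 3 libraries. All 3 knockdown libraries lie below all 3 controls for TFRC (551.8 to 594.6 against 664.8 to 725.0 CPM), FTL and STEAP3, and above them for FTH1 and NCOA4.

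TFRC, ENSG00000072274 on the minus strand of chromosome 3 from 195754054 to 195809060 (hg19), carries transferrin into the cell. Its raw counts were 10296, 10804 and 9823 in the controls and 10295, 9789 and 8948 in the knockdown libraries. Scaled for library size, the levels were 725.0, 706 and 665 CPM in the controls and 573, 552 and 595 CPM in the knockdown. The raw counts overlapped, whereas after scaling every knockdown library was below every control. The means were 699 ± 30.8 and 573 ± 21.4 CPM (SD, n = 3 each). The fall was 0.29 on the log2 scale (SE 0.0808, 95% interval -0.45 to -0.12), with an adjusted p = 0.0274 by edgeR's quasi-likelihood test. The call was lost without control replicate 1 (adjusted p = 0.0701), control replicate 2 (0.0551), knockdown replicate 2 (0.168), knockdown replicate 3 (0.073) or the pair of libraries that stood apart (0.059), while the log2 fold change stayed between -0.32 and -0.26 in all settings tried.

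STEAP3, the endosomal ferrireductase, lies on chromosome 2 (plus strand, 119981384 to 120023228, hg19). It was at 78.7, 76.5 and 84.5 CPM in the controls and 73.5, 70.7 and 68.3 CPM in the knockdown. The knockdown libraries were all below the controls, but the log2 fold change of -0.17 (95% interval -0.34 to -0.0073) had an adjusted p = 0.203 in edgeR's test. SLC11A2, on the minus strand of chromosome 12 from 51373184 to 51422349 (hg19), carries the reduced iron out of the endosome. It was the lowest of the genes per unit of transcript length, at 41.2, 34.7 and 35.9 CPM in the controls and 36.2, 33.7 and 38.0 CPM in the knockdown. The groups overlapped, and the log2 fold change was -0.05 (95% interval -0.25 to 0.15, adjusted p = 0.812 in edgeR's test), and -0.11 without the pair that stood apart. Of the transcripts with a 3' match above, TFRC was thus called, and SLC11A2, IREB2 and ACO1 were not. The differences between their changes were not tested.

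The ferritin chains were the most abundant transcripts of the cycle. FTH1, the heavy chain with the ferroxidase site that oxidises iron for storage, is ENSG00000167996 on the minus strand of chromosome 11 (61727190 to 61735132, hg19). It had 47858, 55118 and 55784 raw counts in the controls and 75987, 70058 and 59829 in the knockdown. In CPM these were 3370.0, 3604 and 3775 in the controls and 4226, 3949 and 3976 in the knockdown, with no overlap. The means were 3583 ± 203 and 4050.3 ± 153 CPM (SD, n = 3 each), and the log2 fold change of 0.18 (SE 0.0892, 95% interval -0.0068 to 0.36) did not pass (adjusted p = 0.245, edgeR's test).

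FTL, the light chain that promotes mineral formation in the ferritin core, is ENSG00000087086 on the plus strand of chromosome 19 (49468558 to 49470135, hg19). Its raw counts were 102660, 112570 and 123650 in the controls and 121246, 117526 and 101101 in the knockdown. The levels were 7229, 7360 and 8368 CPM in the controls, with control replicate 3 the highest, and 6743, 6625 and 6718 CPM in the knockdown. No knockdown library reached the lowest control. The log2 fold change was -0.19 (SE 0.0928, 95% interval -0.38 to -0.0015) with an adjusted p = 0.221 in edgeR's test, and it was -0.12 without control replicate 3. Without control replicate 1 it was -0.232 and without the pair that stood apart -0.225, in neither case with a call. Added together, FTH1 and FTL had a mean of 11240 CPM in the controls and 10750 CPM in the knockdown. These are 1.12% and 1.07% of the scaled library size, not of raw counts. The summed levels overlapped, from 10600 to 12140 CPM against 10570 to 10970 CPM.

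The balance of the chains was therefore examined within each library, after their values had been seen, since a ratio of raw counts is free of library scaling. There were 0.466, 0.490 and 0.451 FTH1 reads per FTL read in the controls and 0.627, 0.596 and 0.592 in the knockdown. The lowest knockdown ratio was above the highest control ratio, and the means were 0.469 ± 0.0194 and 0.605 ± 0.019 (SD, n = 3 each). This lack of overlap adds nothing to the levels above. It follows from FTH1 lying above and FTL below its controls in every knockdown library, neither of them called. On the log2 scale the difference was 0.367, beside an SD within groups of 0.0594 in controls and 0.0451 in the knockdown. TFRC reads per FTH1 read were 0.215, 0.196 and 0.176 in the controls and 0.135, 0.140 and 0.150 in the knockdown. Their lack of overlap likewise follows from TFRC lying below and FTH1 above the controls. TFRC reads per FTL read overlapped, at 0.100, 0.096 and 0.0794 against 0.0849, 0.0833 and 0.0885. These ratios were chosen after the values were known and were not tested, so the size of a difference beside its SD is no measure of evidence. How often other pairs of genes differ as much was not examined. In GENCODE 29, 25 pseudogenes carry an FTH1P name and 16 an FTLP name, and how the authors' counting treated reads that match several copies is not given, so levels of both chains may be partial.

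**Figure D2:**
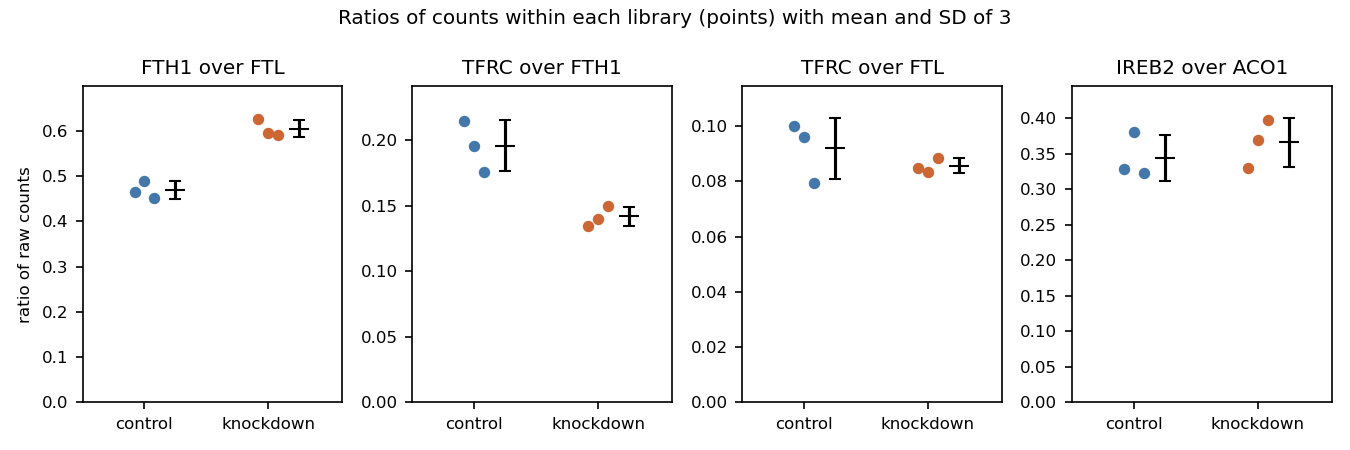
Ratio of raw counts of gene pairs within each library (y axis from 0), for 3 control (blue) and 3 knockdown (orange) libraries, with mean and SD of 3. FTH1 over FTL lies at 0.451 to 0.490 in controls and 0.592 to 0.627 in the knockdown, TFRC over FTH1 is below the controls in each knockdown library, and the other ratios overlap.

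NCOA4, the receptor that brings ferritin to the autophagosome, lies on the plus strand of chromosome 10 (51565108 to 51590734, hg19). It was at 148, 139 and 140 CPM in the controls and 151, 155 and 155 CPM in the knockdown. The knockdown libraries were all above the controls by a narrow margin, and the log2 fold change of 0.11 (95% interval -0.04 to 0.27) had an adjusted p = 0.402 in edgeR's test. HMOX1, which splits haem into biliverdin, carbon monoxide and iron, lies on the plus strand of chromosome 22 (35776354 to 35790207, hg19). It was at 27.7, 33.1 and 34.2 CPM in the controls and 33.1, 37.7 and 37.1 CPM in the knockdown. Control replicate 1 was the lowest library and the groups overlapped. The log2 fold change of 0.18 (95% interval -0.03 to 0.39) was 0.09 without control replicate 1, and did not pass in either case (adjusted p = 0.310 and 0.685, edgeR's test). It was 0.24 without control replicate 3 and 0.27 without the pair that stood apart, also without a call (adjusted p = 0.21 and 0.197, edgeR's test).

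The sensors of cellular iron showed no call. IREB2, on the plus strand of chromosome 15 (78729773 to 78793798, hg19), was at 72.3, 72.8 and 64.1 CPM in the controls and 72.0, 73.2 and 80.4 CPM in the knockdown. Its log2 fold change was 0.11 (95% interval -0.07 to 0.28, adjusted p = 0.493 in edgeR's test), and it was 0.05 with control replicate 3 left out, 0.06 with knockdown replicate 3 left out and 0.17 with the pair that stood apart left out. ACO1, on the plus strand of chromosome 9 (32384618 to 32454767, hg19), is an aconitase that binds RNA when it has lost its iron-sulphur cluster. It was at 221, 192 and 198 CPM in the controls and 218, 198 and 202 CPM in the knockdown, nearly the same range in each group. FBXL5, on the minus strand of chromosome 4 (15606162 to 15683302, hg19), was at 63.0, 62.2 and 65.0 CPM in the controls and 60.0, 62.5 and 59.6 CPM in the knockdown. The intervals of ACO1 (-0.15 to 0.18) and FBXL5 (-0.23 to 0.10) bound any change of their mRNA, and the adjusted p-values were 0.925 and 0.712 in edgeR's test. IREB2 reads per ACO1 read overlapped between the groups, at 0.323 to 0.380 and 0.330 to 0.398. These are mRNA levels, whereas IREB2 and FBXL5 are set largely by protein turnover, and ACO1 by its cluster.

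**Figure D3:**
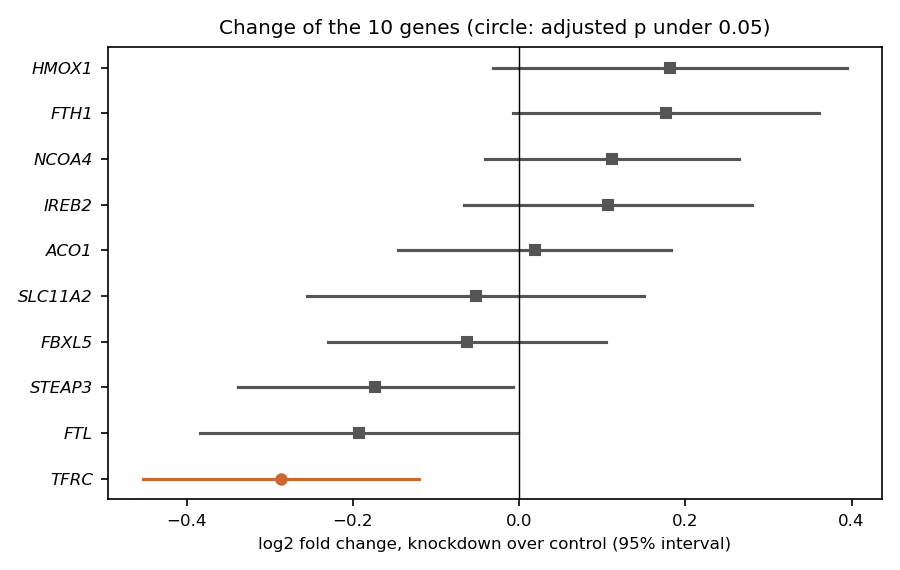
Log2 fold change of each of the 10 genes, knockdown over control (x axis), with its 95% interval from edgeR's quasi-likelihood fit. TFRC (orange circle, -0.29) is the gene with an adjusted p under 0.05, and no interval of the other 9 (grey squares) reaches beyond 0.4 in either direction.

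Levels between genes were set side by side per kilobase of the longest coding transcript, in CPM per kb of the controls. FTL stood highest at 8720, followed by FTH1 at 2920 and TFRC at 137. NCOA4 (40.1) and ACO1 (27.3) came next, FBXL5 and STEAP3 shared 18.7, HMOX1 was at 17.4, IREB2 at 11.0 and SLC11A2 at 8.57. The order of the first 5 was the same in the knockdown (7630, 3300, 112, 43.3 and 27.6). HMOX1, FBXL5 and STEAP3 were close to each other and changed places there, at 19.7, 17.9 and 16.6. The lengths come from GENCODE 29 on GRCh38 and the counts from hg19, so these levels are approximate.

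The 5 genes whose log2 levels followed TFRC most closely over the 6 libraries, among 10434 with a mean of at least 5 CPM, were YY1 (Pearson r 0.998), CDC23 (0.996), EHD3 (0.996), ZWINT (0.992) and FSTL1 (0.991). The points share the library and the division into groups, so these values are a description. YY1 is a zinc finger transcription factor, CDC23 a subunit of the anaphase-promoting complex, EHD3 a protein of endosomal recycling, ZWINT a kinetochore protein and FSTL1 a secreted glycoprotein. Of these, EHD3 and ZWINT fell, by 0.54 and 0.34 on the log2 scale (adjusted p = 0.0267 and 0.00887, edgeR's test). The EHD3 call was lost without control replicate 1 (adjusted p = 0.0839), control replicate 2 (0.0627), knockdown replicate 1 (0.0563), knockdown replicate 2 (0.142) or the pair that stood apart (0.0979), and that of ZWINT without knockdown replicate 2 (0.0652).

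Of 95 further genes in 7 lists reported here, 79 had enough reads to be tested, 4 rose (CDC42BPA, HSPA9, HEBP1 and NEO1) and 0 fell in edgeR's test, beside 3.96% and 4.12% of all tested genes in those directions. DESeq2 called 6 higher, with EPAS1 and NFE2L2 added, and 1 lower (PCBP1), and scaling by library totals gave the same 6 higher. Their median log2 fold change was 0.02, and the groups did not overlap in 19 of the 79, beside 26.6% of all tested genes. Leaving out control replicate 1, knockdown replicate 2 or knockdown replicate 3 reduced the higher calls to 2, and leaving out control replicate 1 gave 1 lower call, PCBP1.

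**Figure D4:**
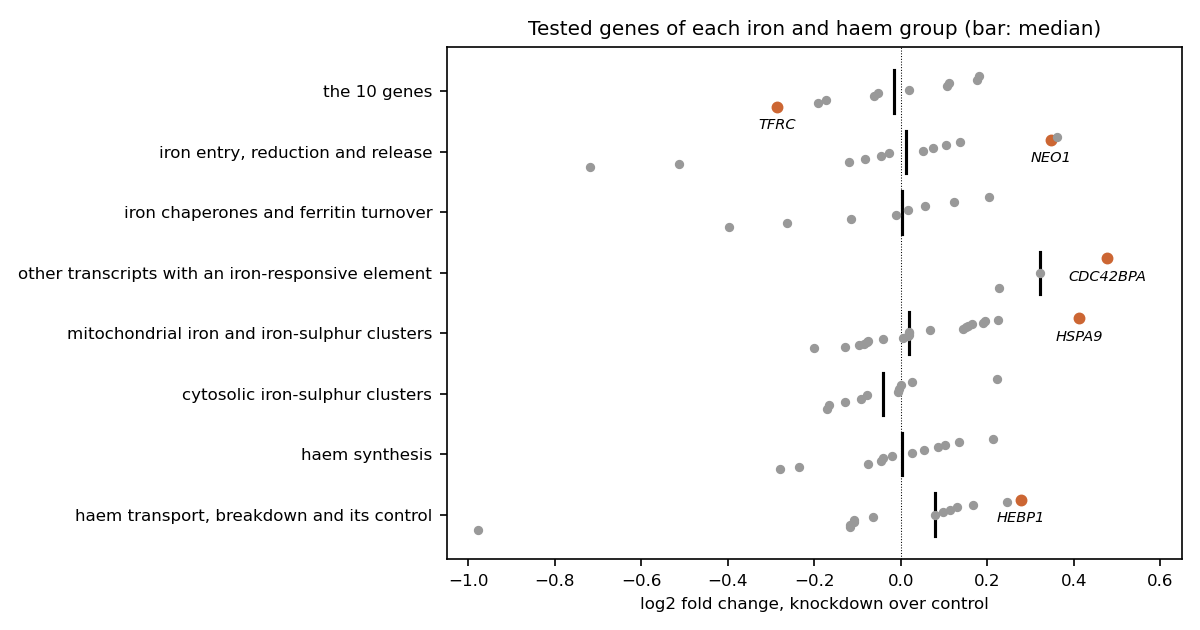
Log2 fold change, knockdown over control (x axis), of the tested genes among the 10 (first row) and in each further iron and haem group. Orange points with names are the 5 genes (TFRC included) with an adjusted p under 0.05, grey points the others, and the black bar is the median of the group, which lies between -0.04 and 0.08 except for the 3 tested further transcripts with an iron-responsive element (0.32).

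Among genes of iron entry, reduction and release, 1 of 12 tested rose and 0 fell. NEO1, neogenin, a partner of the iron-regulating protein hemojuvelin, rose from 30.2, 36.1 and 30.3 CPM to 41.2, 42.1 and 39.7 CPM, a log2 fold change of 0.35 (adjusted p = 0.0273, edgeR's test). All knockdown libraries were above the controls, yet the call was lost without control replicate 1 (adjusted p = 0.0938), control replicate 3 (0.0841), knockdown replicate 1 (0.0651), knockdown replicate 2 (0.121) or knockdown replicate 3 (0.0585). The iron importer SLC39A14 was at 163 and 160 CPM in controls and knockdown, the endosomal sorting protein SNX3 at 239 and 220, and the ferrireductase CYBRD1 at 73.0 and 78.5, none of them called. Without the pair that stood apart the log2 fold change of CYBRD1 was 0.28 in place of 0.10, still without a call. SLC40A1, ferroportin, the iron exporter of the cell, had 0 reads in all 6 libraries, which allows at most 0.167 to 0.211 CPM per library (3 counts, counting error only). HAMP, the hormone that removes ferroportin from the membrane, also had 0 reads, and TFR2, the second transferrin receptor, had 2 in total.

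Of 8 tested iron chaperones and ferritin turnover genes 0 were called in edgeR's test. An unadjusted p under 0.05 was found for 3 of them, beside 22.2% of all tested genes. SKP1, a subunit of the ubiquitin ligase that contains FBXL5, was at 364 and 336 CPM, the autophagy receptor TAX1BP1 at 280 and 323, and the vesicle tetraspanin CD63 at 268 and 266. PCBP1, which hands iron to ferritin and was named after its values were seen, was at 170, 195 and 202 CPM in the controls and 144, 166 and 163 CPM in the knockdown. Its groups did not overlap, and its adjusted p was 0.0521 in edgeR's test, while DESeq2 called it lower and limma-voom did not. It was also called without control replicate 1.

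Of 3 tested further transcripts known to carry an IRE, 1 rose. CDC42BPA, a kinase of the actin cytoskeleton with an IRE in its 3' untranslated region, rose from 56.1, 63.4 and 44.0 CPM to 76.1, 80.3 and 71.2 CPM. Its log2 fold change was 0.48 (SE 0.104, adjusted p = 0.00503 in edgeR's test), and it was called in every setting tried. EPAS1, the oxygen-regulated factor HIF-2alpha, was at 216, 216 and 219 CPM in the controls and 263, 253 and 247 CPM in the knockdown. It did not pass in edgeR's test (adjusted p = 0.061) and did in DESeq2 (0.0256). CDC14A, a phosphatase, was low, at 2.50 ± 0.581 and 3.11 ± 0.878 CPM (SD, n = 3 each), with a log2 fold change of 0.32 that was 0.0046 without the pair that stood apart, and ALAS2 had 0 reads. The hairpin search found the full pattern in CDC14A, ALAS2 and SLC40A1, and no match in the longest transcripts of EPAS1 and CDC42BPA.

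Iron-sulphur cluster genes gave 1 call. HSPA9, the mitochondrial HSP70 that helps release new clusters and imports proteins, rose from 610, 520 and 582 CPM to 833, 711 and 734 CPM. Its log2 fold change was 0.41 (SE 0.088, adjusted p = 0.00331 in edgeR's test), and it too was called in every setting. Of 21 tested genes of mitochondrial iron and clusters 1 rose and 0 fell, with the iron importer SLC25A37 at 105 and 106 CPM, the cysteine desulphurase NFS1 at 55.1 and 55.7, and the membrane cluster protein CISD2 at 54.5 and 62.4. Of 10 tested genes of the cytosolic pathway 0 were called by edgeR, DESeq2 or limma-voom. In edgeR 1 of them had an unadjusted p under 0.05, beside 22.2% of all tested genes. GLRX3, a cluster-carrying glutaredoxin, was at 109 and 97.0 CPM, and the targeting factors CIAO1 and FAM96A were at 83.9 and 83.5 and at 76.8 and 76.5 CPM.

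Haem synthesis gave no call, and the genes of haem transport and breakdown gave 1. Of 12 tested enzymes and carriers of synthesis 0 passed in edgeR, DESeq2 or limma-voom. In edgeR 2 of them had an unadjusted p under 0.05, beside 22.2% of all tested genes. TMEM14C, a mitochondrial porphyrin carrier, was at 153 and 151 CPM, the decarboxylase UROD at 102 and 98.8, and the oxidase CPOX at 85.5 and 72.7, with a log2 fold change of -0.23 that was -0.15 without the pair that stood apart. HEBP1, a haem-binding protein, rose from 91.6, 89.3 and 101 CPM to 114 CPM in each knockdown library, a log2 fold change of 0.28 (adjusted p = 0.026, edgeR's test). Its call was lost without control replicate 1 (adjusted p = 0.0711), control replicate 2 (0.094), knockdown replicate 1 (0.0542), knockdown replicate 2 (0.104), knockdown replicate 3 (0.0881) or the pair that stood apart (0.116). NFE2L2, the NRF2 factor that drives HMOX1 and both ferritin genes, was at 282, 289 and 246 CPM in the controls and 306, 330 and 331 CPM in the knockdown. It missed the threshold in edgeR's test (adjusted p = 0.0655) and passed it in DESeq2 (0.0463), and when control replicate 2 (0.0498), knockdown replicate 1 (0.0496) or both (0.0323) were left out. The membrane haem chaperone PGRMC1 and the haemopexin receptor LRP1 were at 182 and 168 and at 161 and 150 CPM, without a call.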

How the data were processed

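Per the file headers, the deposited table gives raw read counts per gene for 6 libraries, beside 6 columns of normalised counts that were not used. Tools named in the submitters' processing notes are STAR 2.7.9a, featureCounts 2.0, fastp 0.20.0 and DESeq2, with build hg19. Tool settings, annotation and use of strand in counting are not stated in the sources used here, so reads shared with FTH1, FTL or NCOA4 pseudogenes, or with BEST1 (opposite FTH1) and FAM200B (opposite FBXL5), may be divided in an unknown way.

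From these counts, 12305 genes passed edgeR's filterByExpr. They were scaled by TMM and compared with edgeR 4.0.16 (R 4.3.3, robust glmQLFit, glmQLFTest, group alone), with Benjamini-Hochberg adjustment. CPM are counts over the TMM-scaled library size, times 1e6. SE is the log2 fold change over the root of F, and 95% intervals use the t distribution. Alternatives were other scalings and filters, DESeq2 1.42.0, limma 3.58.1, the replicate block and leaving out libraries. The code was tested on simulated data. Libraries of a group differed beyond sampling noise, which separate cultures or library preparation alone could give, and each counted as 1 replicate. Chi-square per degree of freedom was 3.05 between knockdown replicates 2 and 3 and 10.2 to 11 in the other pairs within groups.

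Members and lists were chosen with earlier results of these data known. Named genes are the 10 members, ALKBH3, called genes of the lists, up to 3 uncalled genes per list with the highest CPM, and the 5 closest to TFRC. PECAM1, listed as a marker, is not analysed here. A gene of the lists is withheld and not reported here, and counts over the lists leave it out.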

Additional observations from a re-analysis of the deposited data

How the results depend on the processing

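Of 160 recomputed log2 fold changes of the 10 iron genes, 151 kept direction and side of the threshold, 5 (all TFRC) lost the call and 4 changed sign. The calls over all genes ranged from 312 to 433 higher and from 285 to 423 lower when 1 library was left out, against 487 and 507, and scaling by library totals moved the split to 610 and 417. Left out 1 at a time, libraries gave 0 to 1 lower call among the 10 genes, 2 to 4 higher and 0 to 1 lower in the wider lists, and without the pair that stood apart (added after seeing the data) the 10 genes gave 0. The wider lists gave 1 lower call (PCBP1) in place of 0 under DESeq2 size factors, no filter on low counts, the DESeq2 test and the replicate block. The log2 difference of FTH1 over FTL stayed between 0.34 and 0.399.

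Log2 fold changes near 0 that changed sign ranged, with 1 library left out, from -0.0241 to 0.0801 for ACO1, -0.102 to 0.0248 for SLC11A2, -0.0587 to 0.00325 for SLC39A14, -0.1 to 0.0773 for CD63, -0.0375 to 0.0766 for SLC25A37, -0.0244 to 0.0578 for NFS1, -0.0477 to 0.0186 for CIAO1, -0.0802 to 0.0378 for FAM96A, -0.0693 to 0.0629 for TMEM14C and -0.0962 to 0.0215 for UROD. Library totals gave 0.0151 for CD63, 0.019 for CIAO1, 0.0199 for FAM96A and 0.00501 for TMEM14C. Without the pair that stood apart ACO1 was at -0.0661 and SLC39A14 at 0.0169. The cause was not tested.

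Deviations from the group means correlated at 0.0579, 0.107 and -0.0556 between same-numbered libraries, and at -0.145 to 0.0896 between differently numbered ones. With 3 libraries per group, these values do not decide whether replicate numbers pair the samples. With the replicate block 587 genes were higher and 647 lower, TFRC was called (adjusted p = 0.0139, edgeR) and EPAS1, NFE2L2 and PCBP1 were added. The planned limma-trend fit on the deposited normalised columns was not run, and the same fit on normalised counts computed here was added after seeing the data. Among the 10 genes the widest interval, that of HMOX1, reached 0.213 to each side of its value on the log2 scale, which limits the size of change that can be resolved for it.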
